A study of Bos taurus with 12 samples.

Results

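CCL4 and LTA are lymphocyte effector cytokine genes, chosen by name and Ensembl identifier (ENSBTAG00000025257 for CCL4 and ENSBTAG00000000016 for LTA), and they are 2 of the 27607 genes counted in bovine peripheral white blood cells (PWBCs). Both passed the filter on low counts, which kept 13012 genes. CCL4, also known as MIP-1 beta, is a CC chemokine secreted by activated T cells, natural killer (NK) cells and monocytes, and it attracts immune cells to sites of inflammation. LTA, lymphotoxin alpha, belongs to the tumour necrosis factor (TNF) superfamily and is made by activated T, B and NK cells. It is secreted as a trimer that binds the TNF receptors, or it joins LTB at the cell surface to bind the lymphotoxin beta receptor, a signal known for its part in building lymphoid tissue.

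The RNA came from 12 Simmental-Angus cross-bred heifers in their first breeding season, 6 labelled pregnant and 6 labelled open, with 1 library per heifer. The pregnant heifers conceived at the first artificial insemination (AI) and are called fertile. The open heifers stayed non-pregnant after AI and natural service and are called subfertile, a classification made after the blood had been drawn. All 12 received the same 7-Day CO-Synch + CIDR protocol, with 100 µg of GnRH, an intravaginal device holding 1.38 g of progesterone for 7 days, 25 mg of dinoprost at its removal and AI about 54 h later. Blood was drawn 2 days before AI, and bulls joined the heifers 14 days after AI for about 60 days. The reproductive tract score (RTS), a grade of pubertal maturity, was 4 in 10 heifers and 5 in LM1247 of the fertile group and LM1246 of the subfertile group. Age and body weight of single heifers were not used here, and 1 blood sample per heifer, drawn under hormonal synchronization, describes the circulating cells at that time only.

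Library totals ran from 14010736 to 21278761 counts, with 15625 to 16323 genes detected. Defining markers of T cells (CD3E), B cells (CD79A) and platelets (TUBB1) were detected in every library, so the RNA came from a mixture of blood cells. Of the neutrophil markers, S100A9, which monocytes also express, was detected in every library, whereas CXCR2 was at 0 in LM1330 and at most 7.81 CPM elsewhere. In such bulk samples, fewer cells of a type and less RNA per cell cannot be told apart. Levels are given as CPM, reads scaled to the same TMM-adjusted library total, and each log2 fold change (log2FC) sets subfertile against fertile, so that a negative value is a lower level in subfertile heifers. A gene was called at an unadjusted P of 0.05 or less with an absolute log2FC of 0.5 or more, the thresholds of the study.

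CCL4 was lower in most subfertile heifers, but the difference between the groups did not pass the edgeR test. In fertile heifers the CCL4 level ran from 3.94 CPM in LM1262 through a median of 4.66 to 9.79 CPM in LM1330. In subfertile heifers it ran from 1.45 CPM in LM1283 through a median of 2.25 to 7.97 CPM in LM1265. Of the 6 subfertile heifers, 5 lay below every fertile heifer, and LM1265 alone held the second highest level of the 12, so that the groups overlapped through that heifer. Behind these levels stood 65 to 162 counts in the fertile libraries and 25 to 112 in the subfertile libraries. In LM1259, the highest of the 5 low heifers, the 95% counting interval ran from 2.94 to 4.78 CPM around 3.78, which covered the level of the lowest fertile heifer. For LM1265 it ran from 6.56 to 9.58 CPM, above the levels of 4 of the 6 fertile heifers. These are exact Poisson intervals and cover counting error only.

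The mean CCL4 level was 5.62 ± 2.27 CPM in fertile heifers (SD, n = 6) and 3.28 ± 2.43 CPM in subfertile heifers (SD, n = 6), a fitted level 1.72-fold higher in the fertile group. The edgeR log2FC was −0.78 (SE 0.40), with a 95% confidence interval from −1.64 to 0.07. The edgeR quasi-likelihood P was 0.0693, with a Benjamini-Hochberg adjusted P of 0.9998. CCL4 was therefore not called, against 1.40% of the tested genes called by edgeR in either direction, 0.738% lower and 0.661% higher in subfertile heifers. By P it ranked 541st of the 13012 genes. With DESeq2, the tool of the study, the log2FC was −0.79 (SE 0.40) with an unadjusted P of 0.0463 and a Benjamini-Hochberg adjusted P of 0.9998, and CCL4 was called, as were 1.77% of the tested genes. With voom in limma the log2FC was −0.95 with a P of 0.0191, again a call, where 1.10% of genes were called. The two-sided exact permutation test on log2 CPM gave a mean difference of −0.91 and a P of 0.0476, and the smallest P this design allows is 0.00216. CCL4 thus stood close to the unadjusted threshold, on either side of it by tool, and far from any adjusted one. No gene passed an adjusted P of 0.05 with edgeR or DESeq2 (Benjamini-Hochberg), while 341 had an unadjusted edgeR P of 0.05 or less.

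**Figure D1:**
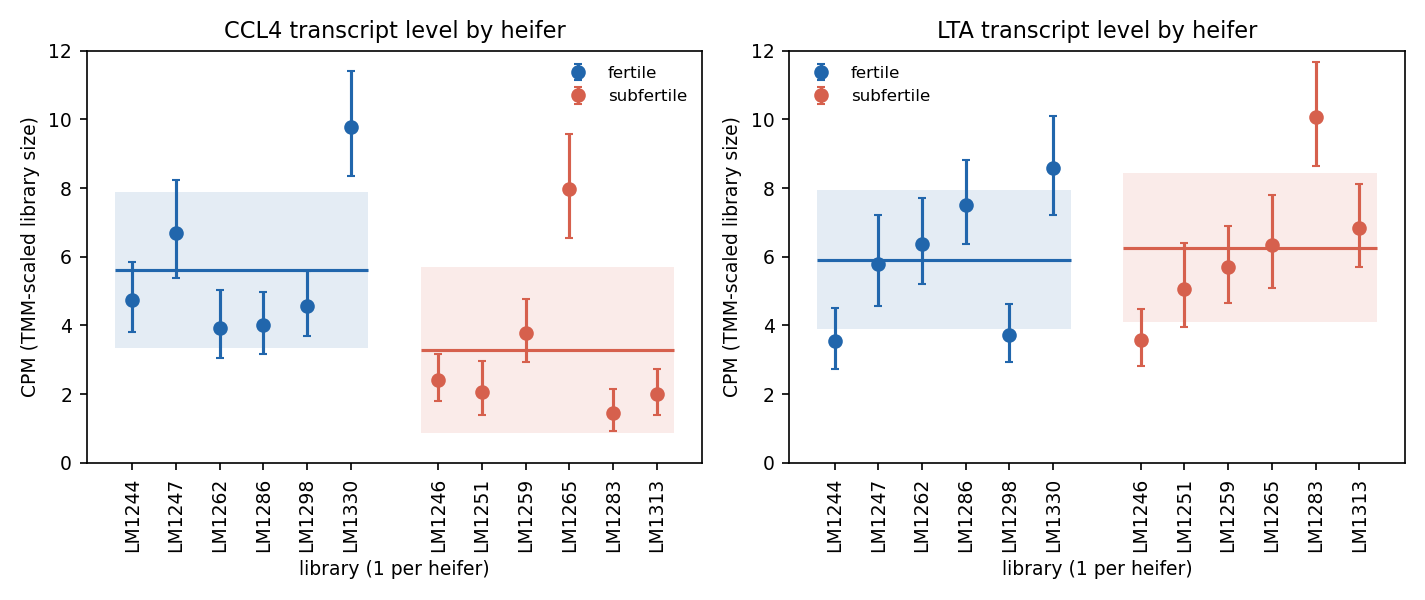
CCL4 (left) and LTA (right) levels in CPM (vertical axis) for each heifer's library (horizontal axis). Points are single libraries with exact 95% Poisson counting intervals, and lines with shading are group means ± SD. For CCL4, 5 of 6 subfertile heifers lie below the lowest fertile heifer at 3.94 CPM and LM1265 stands at 7.97 CPM, whereas the LTA levels of both groups overlap between 3.59 and 8.58 CPM.

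Leaving out 1 heifer was enough to change the CCL4 call. Without LM1265 the CCL4 log2FC was −1.26 (SE 0.32), the edgeR P was 0.00168 and the Benjamini-Hochberg adjusted P 0.9958, and the gene was called, where the fit on the other libraries called 1.86% of 13189 genes. In that comparison the groups did not overlap, and the exact permutation P was 0.00216, the smallest that can be reached. LM1265 was the only subfertile heifer within the fertile range, so both outcomes followed from leaving it out and are no further evidence. Without LM1330, the fertile heifer with the highest level, the log2FC was −0.56 and the edgeR P 0.180 (edgeR quasi-likelihood test, adjusted P 0.99995). The log2FC was negative in all 18 alternatives that gave a value, between −1.26 and −0.56. The P of the exact permutation test rose above 0.05 when any of 9 heifers was left out (LM1244, LM1246, LM1247, LM1251, LM1259, LM1283, LM1298, LM1313 or LM1330), up to 0.0974, and stayed at or below it without LM1262, LM1286 or LM1265.

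LTA did not differ between the groups beyond the spread between heifers. In fertile heifers the LTA level ran from 3.54 CPM in LM1244 through a median of 6.07 to 8.58 CPM in LM1330. In subfertile heifers it ran from 3.59 CPM in LM1246 through a median of 6.01 to 10.1 CPM in LM1283. The groups overlapped almost completely, with LM1283 above every fertile heifer and LM1244, at 3.54 CPM, just below every subfertile heifer. The counts were 67 to 152 in fertile and 71 to 174 in subfertile libraries. The mean LTA level was 5.91 ± 2.02 CPM in fertile (SD, n = 6) and 6.26 ± 2.18 CPM in subfertile heifers (SD, n = 6). The log2FC was 0.08 (SE 0.28), with a 95% confidence interval from −0.51 to 0.68, so that the data left room for a change of up to that size in either direction. The edgeR quasi-likelihood P was 0.769 and the Benjamini-Hochberg adjusted P 0.9998. DESeq2 gave a log2FC of 0.08 and an unadjusted P of 0.786, and the two-sided exact permutation P was 0.762. The sign of the LTA difference turned when LM1244 (−0.03), LM1298 (−0.02) or LM1283 (−0.10) was left out, and no alternative called the gene.

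**Figure D2:**
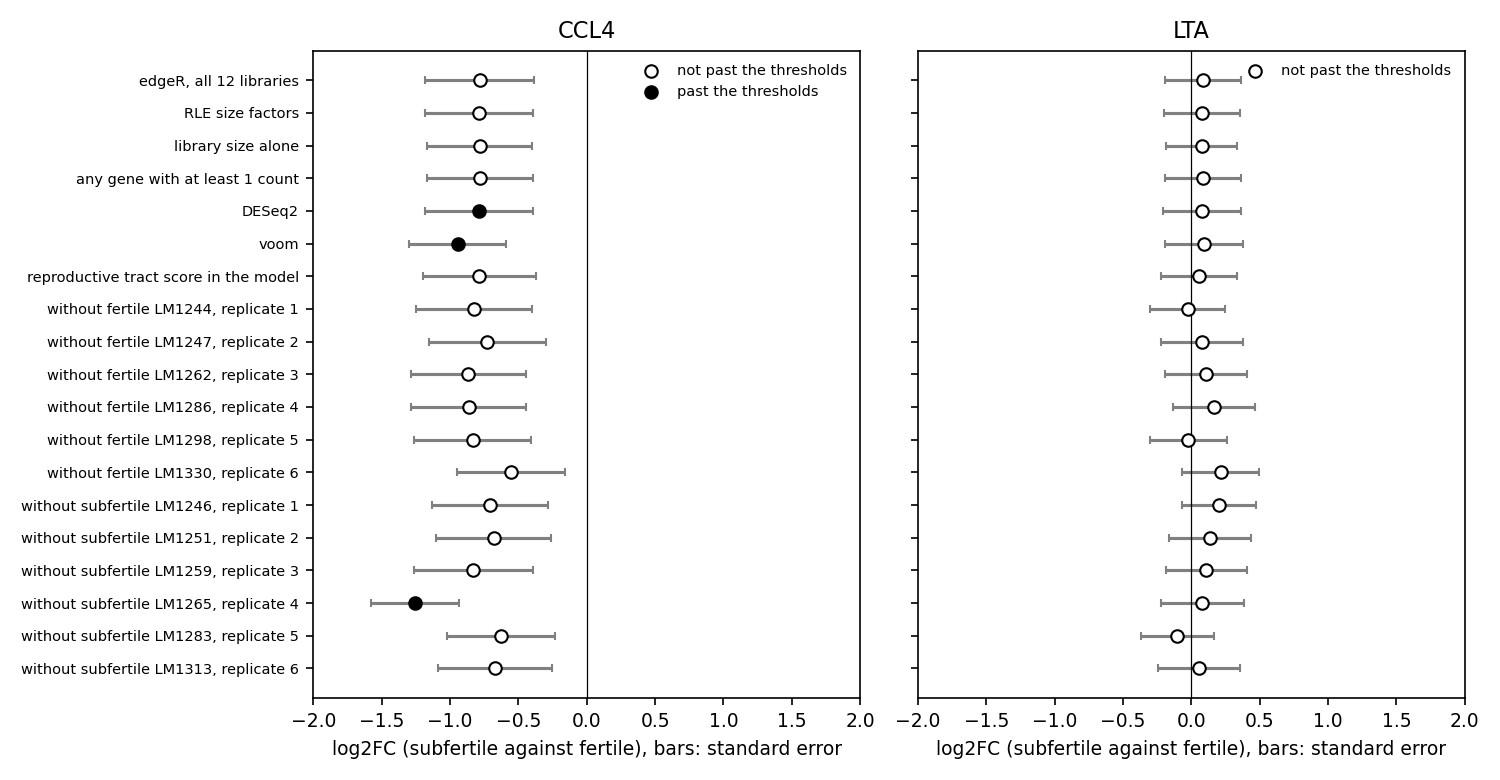
The log2FC of CCL4 (left) and LTA (right), subfertile against fertile (horizontal axis), under each setting that gave a value (vertical axis), with standard errors as bars. Filled points passed both thresholds of the study. CCL4 stays between −1.26 and −0.56 and is filled with DESeq2, with voom and without LM1265, and LTA lies between −0.10 and 0.21.

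The coefficient of variation of CCL4 was 40.4% in fertile and 74% in subfertile heifers, and the counting error of a single library amounted to 7.86% in LM1330, which had the most CCL4 counts, and to 20% in LM1283, which had the fewest. For LTA the coefficients were 34.1% and 34.8%. From the lowest to the highest of the 12 heifers, the CCL4 level differed 6.77-fold and the LTA level 2.85-fold. The biological coefficient of variation that edgeR fitted was 0.473 for CCL4, above the 0.400 of the trend for genes of like level, and 0.343 for LTA against 0.366.

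CCL4 and LTA did not rise and fall together across heifers. Over the 12 heifers, Pearson's r between CCL4 and LTA on log2 CPM was −0.03 (permutation P = 0.918) and Spearman's rho −0.08 (permutation P = 0.801), with Benjamini-Hochberg adjusted values of 0.945 and 0.922 over the 35 relations computed. Within the fertile group r was 0.40 (exact permutation P = 0.417), and within the subfertile group it was −0.21 (exact permutation P = 0.672). LM1283, with the lowest CCL4 level and the highest LTA level of the 12, weighed on this value. Without LM1283 r was 0.32, and without LM1283 and LM1330, the heifers farthest from the median of CCL4, it was 0.08. The number of CCL4 counts per LTA count, which is not corrected for transcript length and is read between heifers only, ran from 0.533 to 1.34 with a median of 1.15 in fertile heifers. In subfertile heifers it ran from 0.144 in LM1283 to 1.26 in LM1265, with a median of 0.536. A ratio above 1, which does not rank the levels of the transcripts themselves, was seen in 4 of 6 fertile heifers and in 1 of 6 subfertile heifers, LM1265.

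**Figure D3:**
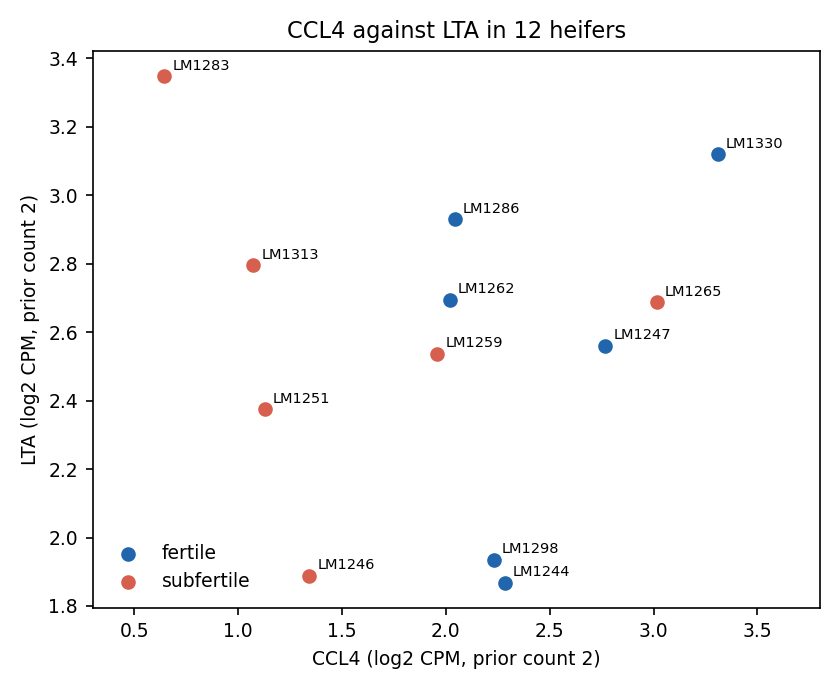
CCL4 (horizontal axis) against LTA (vertical axis), both in log2 CPM with a prior count of 2, with 1 point per heifer coloured by group. No common trend is seen (r = −0.03), and LM1283 lies at the upper left, with the lowest CCL4 and the highest LTA level.

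The genes around both cytokines were taken from 7 lists: chemokine ligands, chemokine receptors, TNF superfamily ligands and receptors, NF-kB signalling, activation-induced genes, and cytotoxic and type 1 effector genes. Of 167 distinct genes in these lists, 36 could be named and all 36 were tested. Names came from the supplementary tables of the study, which favour genes that it had picked on these samples, so counts over the named genes are not independent evidence. The receptors TNFRSF1A, TNFRSF1B and LTBR, the paralogs CCL3 and CCL5, and TNF and LTB were not analysed here. In the RefSeq gene order (assembly ARS-UCD2.0), LTA lies next to TNF with LTB beyond it, and CCL4 lies in a run of genes that includes CCL3. None of the 3 neighbours on each side of either gene was analysed here, and whether a near-identical copy shares reads with CCL4 was not tested.

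Of the 36 list genes, edgeR called 2, both lower in subfertile heifers, and DESeq2 called 3, CCL4 being the third, where over all tested genes edgeR called 1.40% (0.738% lower) and DESeq2 1.77%. The median log2FC of the 36 was 0.01, with 16 below 0, and the median over all tested genes was also 0.01. The count of called list genes fell to 0 without LM1330, LM1246 or LM1251 and to 1 without LM1247, LM1298, LM1259, LM1283 or LM1313, and it rose to 4 without LM1244. The number of all genes called moved as well, from 182 to 118 without LM1330, 190 without LM1246, 201 without LM1251 and 365 without LM1244, and to between 150 and 227 without the 5 others named.

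Among chemokine ligands, 5 of 35 were named, of which 1 was called lower and none higher (0.738% and 0.661% of all tested genes), with a median log2FC of −0.28 against 0.01 over all genes. CXCL5, a neutrophil-attracting chemokine, ran from 2.53 through 8.15 to 30.2 CPM in fertile and from 1.82 through 3.34 to 7.82 CPM in subfertile heifers. It had a log2FC of −1.22 (SE 0.52) and an edgeR P of 0.0351 (adjusted P 0.9998), and the groups overlapped. The fertile maximum of CXCL5 was again LM1330. CXCL10, an interferon-induced chemokine for activated T cells, had a log2FC of 0.56 and CXCL8, another attractant of neutrophils, −0.28, and neither was called (edgeR P of 0.145 and 0.591, adjusted P 0.9998 for both). Among chemokine receptors, 5 of 23 were named and none was called. CCR3, an eosinophil receptor that also binds CC chemokines, had a log2FC of −1.09 (edgeR P of 0.0692, adjusted P 0.9998), with LM1330 at 207 CPM and the other 11 heifers between 10.9 and 51.4 CPM.

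Among TNF superfamily ligands, 3 of 18 were named and none was called. Over all tested genes edgeR called 1.40%, so the absence of calls in the short lists of this paragraph says little about their genes. FASLG, which triggers death of cells that carry FAS, had a log2FC of −0.13, and TNFSF13, a survival factor of plasma cells, 0.11. Of 27 receptors of this family only TNFRSF4, a costimulatory receptor of T cells, was named, with a log2FC of −0.17. In the NF-kB pathway, through which TNF receptors signal, 10 of 25 genes were named and none was called. Their log2FC lay between −0.13 for MAP3K14, the kinase of the pathway downstream of the lymphotoxin beta receptor, and 0.08 for TNFAIP3, an inhibitor of NF-kB. Among activation-induced genes, 7 of 25 were named and none was called. ATF3, a stress-induced transcription factor, had a log2FC of 0.72 (edgeR P of 0.0727, adjusted P 0.9998), and CD69, an early activation marker of lymphocytes, −0.13.

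The cytotoxic and type 1 effector genes are those that NK and CD8 T cells express along with CCL4. Of 20 such genes 6 were named, of which 1 was called lower and none higher (0.738% and 0.661% of all tested genes), and the median log2FC was −0.26 against 0.01 over all genes. GZMB, a protease of cytotoxic granules and a member of a family of similar genes, had a log2FC of −1.0 (SE 0.45) and an edgeR P of 0.0432 (adjusted P 0.9998). Its level ran from 3.33 through 6.28 to 19.2 CPM in fertile and from 2.56 through 4.15 to 8.44 CPM in subfertile heifers, so that the groups overlapped. The lowest GZMB level of the 12 was in LM1265, the subfertile heifer with the highest CCL4. PRF1, which encodes the pore-forming perforin, had a log2FC of −0.40 (edgeR P of 0.0508, adjusted P 0.9998) and was not called. The transcription factors TBX21 and EOMES, which direct the effector programme, had log2FC of 0.01 and 0.05.

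**Figure D4:**
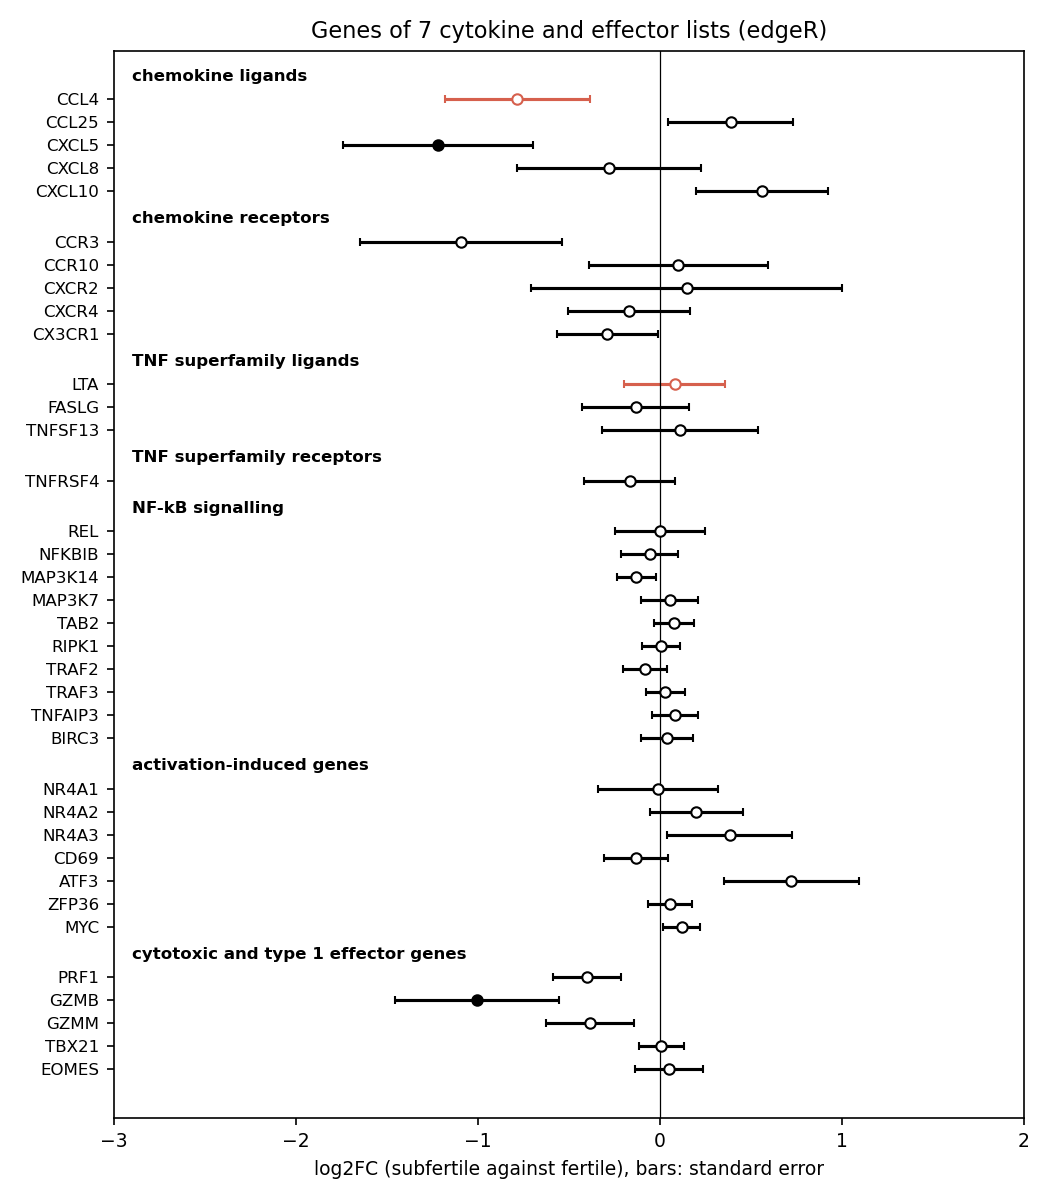
The log2FC of the 36 named list genes, subfertile against fertile (horizontal axis), grouped by list, with standard errors as bars. CCL4 and LTA are in red, and filled points (CXCL5 and GZMB) passed both thresholds with edgeR. The NF-kB genes lie within −0.13 to 0.08.

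Across heifers, the pooled Pearson's r of CCL4 was higher with PRF1 than with the other 5 effector genes, while rho was higher with FASLG, as was r within subfertile heifers, and r within fertile heifers was higher with TBX21 (0.82). For CCL4 and TBX21, the pooled r was 0.43 (permutation P = 0.165, adjusted P = 0.524) and rho 0.42 (permutation P = 0.178, adjusted P = 0.518). Within subfertile heifers r with TBX21 was 0.43, and it was 0.39 over all heifers without LM1283 and LM1330. Pearson's r between CCL4 and PRF1 was 0.76 (permutation P = 0.00476, adjusted P = 0.0833) and Spearman's rho 0.58 (permutation P = 0.0523, adjusted P = 0.366), so that neither passed the correction. It was 0.76 within the fertile and 0.81 within the subfertile group, and 0.68 without LM1283 and LM1330. PRF1 was 108 CPM in LM1265, where the other 5 subfertile heifers lay between 67.3 and 73.9 CPM. Among those 5, LM1259 had the most CCL4 and 71.5 CPM of PRF1. LM1283 had the least CCL4 and 72.9 CPM of PRF1. The r of CCL4 with PRF1 within subfertile heifers thus leaned on LM1265, and r without LM1265 was not computed. FASLG also had its highest level of the 12, 15.9 CPM, in LM1265. For CCL4 and FASLG r was 0.70 (permutation P = 0.0127, adjusted P = 0.112) and rho 0.62 (permutation P = 0.0342, adjusted P = 0.352), with r of 0.37 within fertile and 0.85 within subfertile heifers, and 0.60 without LM1283 and LM1330. GZMB did not follow, with r of 0.26 (permutation P = 0.423, adjusted P = 0.823) and rho of 0.11 (permutation P = 0.733, adjusted P = 0.922). It was 0.48 within the fertile and −0.54 within the subfertile group, and 0.10 without LM1283 and LM1330.

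The relation of LTA with B cell markers was also computed, and it is read beside the 284 of 11500 genes that had an r of 0.80 or more with LTA. Of 9 B cell markers, CD79A, a part of the B cell receptor, and PAX5, the transcription factor of B cell identity, were named. Pearson's r between LTA and their summed CPM on the log2 scale was 0.79 (permutation P = 0.00255, adjusted P = 0.0833), and Spearman's rho was 0.87 (permutation P = 0.00061, adjusted P = 0.0213). The Pearson value missed the correction over 35 relations, and the rank value passed it. Within the fertile group r was 0.84 and within the subfertile group 0.85, and it was 0.63 without LM1244 and LM1246, the heifers farthest from the median of LTA. The sum ran from 367 CPM in LM1244 to 750 CPM in LM1286 among fertile and from 395 CPM in LM1246 to 714 CPM in LM1283 among subfertile heifers. Most of it was CD79A, with means of 549 CPM in fertile and 496 CPM in subfertile heifers, against 29.2 and 20.5 CPM for PAX5. The relation thus describes mainly CD79A, and that of LTA with PAX5 alone was not computed. The heifers lowest in LTA in each group were also lowest in the B cell sum. For CCL4 and the same sum, r was −0.11 (permutation P = 0.726, adjusted P = 0.841) and rho −0.16 (permutation P = 0.620, adjusted P = 0.922), with r of 0.11 within fertile and −0.62 within subfertile heifers, and −0.12 without LM1283 and LM1330.

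**Figure D5:**
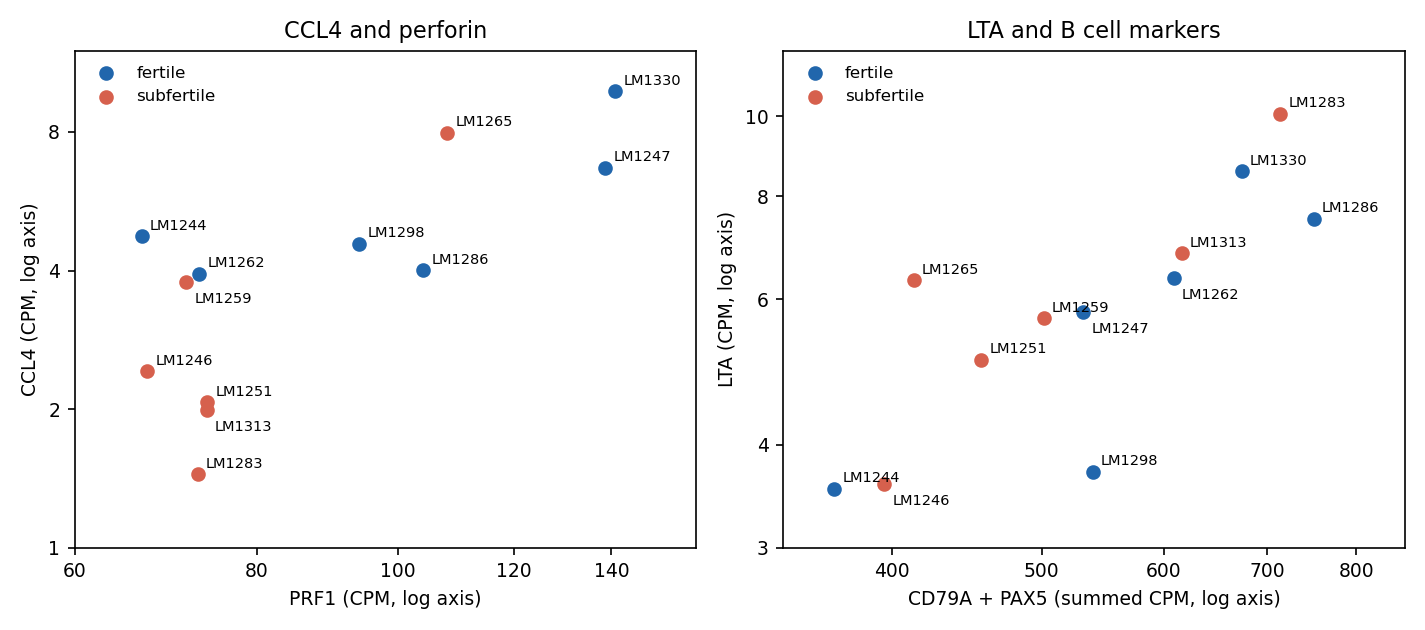
Left, CCL4 against PRF1, and right, LTA against the summed level of the B cell markers CD79A and PAX5, all in CPM on log axes, with 1 point per heifer coloured by group. LM1265, at 108 CPM of PRF1, stands above every other subfertile heifer in both CCL4 and PRF1, and LTA rises with the B cell sum in both groups (r = 0.84 and 0.85). CD79A makes up most of that sum.

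The part of other blood cell markers in the group values was not tested. The NK cell marker CD244, the only one named of 8, ran from 22.7 to 42.2 CPM in fertile and from 24.0 to 46.2 CPM in subfertile heifers, the highest being LM1265. Its r with CCL4 was 0.51 (permutation P = 0.0868, adjusted P = 0.343), its rho 0.50 (permutation P = 0.0985, adjusted P = 0.385), and r was 0.35 within fertile and 0.70 within subfertile heifers and 0.66 without LM1283 and LM1330. The other subfertile heifers lay between 24.0 and 29.8 CPM of CD244, and r without LM1265 was not computed. The summed T cell markers (CD3E, CD2, CD4 and CD8A, 4 of 13) ran from 694 to 1271 CPM in fertile and from 603 to 1017 CPM in subfertile heifers, and none of the 4 was called. For LTA and this sum, r was 0.51 (permutation P = 0.0881, adjusted P = 0.343) and rho 0.50 (permutation P = 0.0987, adjusted P = 0.385), with r of 0.54 within fertile and 0.59 within subfertile heifers, and 0.21 without LM1244 and LM1246. For CCL4 and this sum, r was 0.32 (permutation P = 0.302, adjusted P = 0.701) and rho 0.35 (permutation P = 0.268, adjusted P = 0.647), with r of 0.49 within fertile and 0.05 within subfertile heifers, and 0.20 without LM1283 and LM1330. The platelet markers ITGA2B, GP9 and TUBB1, 3 of 8, summed to between 429 and 7983 CPM in fertile and between 410 and 2646 CPM in subfertile heifers. The medians of the sum were 1931 and 1092 CPM. Most of the sum was TUBB1, with means of 2515 CPM in fertile and 1181 CPM in subfertile heifers, against 118 and 93.4 CPM for ITGA2B. The log2FC was −1.22 for GP9, −1.09 for TUBB1 and −0.34 for ITGA2B, and none was called (edgeR P of 0.128, 0.0874 and 0.259). The highest sum was in LM1330, where the next fertile heifer, LM1247, had 2361 CPM, and the highest of the subfertile group in LM1265, which were also the heifers with the highest CCL4 of their groups. For CCL4 and this sum, r was 0.56 (permutation P = 0.0541, adjusted P = 0.316) and rho 0.61 (permutation P = 0.0402, adjusted P = 0.352), with r of 0.73 within fertile and 0.37 within subfertile heifers, and 0.53 without LM1283 and LM1330. For CCL4 and the summed plasma cell markers (JCHAIN, XBP1 and PRDM1, 3 of 5), r was −0.51 (permutation P = 0.0877, adjusted P = 0.343) and rho −0.55 (permutation P = 0.0679, adjusted P = 0.385), with r of −0.56 within fertile and −0.11 within subfertile heifers, and −0.16 without LM1283 and LM1330. For LTA and CCR3, the only named eosinophil marker of 4, r was 0.69 (permutation P = 0.011, adjusted P = 0.112) and rho 0.71 (permutation P = 0.0131, adjusted P = 0.229), with r of 0.75 within fertile and 0.86 within subfertile heifers, and 0.42 without LM1244 and LM1246. For LTA and the platelet sum, r was 0.59 (permutation P = 0.045, adjusted P = 0.315) and rho 0.50 (permutation P = 0.0989, adjusted P = 0.385), with r of 0.64 within fertile and 0.71 within subfertile heifers, and 0.23 without LM1244 and LM1246. For CCL4 and the summed neutrophil markers (S100A9 and CXCR2), r was −0.22 (permutation P = 0.501, adjusted P = 0.841) and rho −0.08 (permutation P = 0.801, adjusted P = 0.922), with r of −0.69 within fertile and 0.18 within subfertile heifers, and 0.63 without LM1283 and LM1330. None of the relations in this paragraph passed the correction, and the monocyte markers CD68 and VCAN and the neutrophil markers CXCR2 and S100A9 (2 of 8) were not called, and no erythroid marker was named. Of the other marker genes, PAX5 was called lower in subfertile heifers (log2FC −0.51, edgeR P of 0.0487). JCHAIN, the joining chain of secreted antibodies, was called higher (log2FC 0.59, edgeR P of 0.0179). The other named markers of the same cell types were not called. Their log2FC was −0.15 for CD79A, −0.02 for XBP1 and 0.09 for PRDM1 (edgeR P of 0.440, 0.821 and 0.629). Each had an adjusted P of 0.9998 with edgeR, which called 0.738% of all tested genes lower and 0.661% higher.

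The genes whose levels most resembled each cytokine were sought among the 2671 named genes with an average log2 CPM of at least 1, by Pearson's r over the 12 heifers. For CCL4 they were MCU, the pore of the mitochondrial calcium uniporter (r = 0.86), RAP2B, a small GTPase (0.83), ARHGAP28, a GTPase-activating protein (0.77), PRF1 (0.76) and CALML4, a calmodulin-like protein (0.75). CALML4 alone among them was called, with a log2FC of −0.59 and an unadjusted edgeR P of 0.0498. Over all tested genes edgeR called 1.40%, with 0.738% lower in subfertile heifers. Within the groups, r with CCL4 was 0.98 and 0.83 for MCU, in fertile and subfertile heifers, 0.90 and 0.84 for RAP2B, 0.69 and 0.83 for ARHGAP28, 0.76 and 0.81 for PRF1, and 0.41 and 0.67 for CALML4. For LTA they were PSMD8, a proteasome subunit (r = 0.96), LSM7, a part of the RNA-binding LSM ring (0.92), TSSC4 (0.92), CFAP298 (0.91) and SMYD5, a SET-domain protein (0.91), none of which was called. Within the groups, PSMD8 had r of 0.94 and 0.99 with LTA. Among all 11500 genes compared, r was 0.80 or more for 7 genes with CCL4 and for 284 genes with LTA. It was −0.80 or less for 7 genes with CCL4 and for 204 genes with LTA. These values describe likeness over the same 12 libraries and carry no test.

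The number of genes connected to each cytokine was also counted within each group of 6, at an absolute Pearson's r of 0.95 or more on variance-stabilized counts. CCL4 had 44 such genes in fertile and 26 in subfertile heifers, where the median gene had 56 and 61. LTA was linked to 67 genes among fertile animals and to 248 among subfertile ones. A gap between the groups at least as large as that of LTA was seen for 16% of the 13012 genes, and one as large as that of CCL4 for 72.9%. With 6 heifers per group these counts are a description, and they depend on the limit chosen for r.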

How the data were processed

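Poly(A)-selected, strand-specific RNA libraries of PWBCs from 12 heifers were analysed. The authors mapped the reads with STAR 2.7.5 to the ARS-UCD1.3 assembly and deposited raw counts per Ensembl gene, without normalization. The strand column used is not given in the sources used here. All 12 sample columns were used. RNA was extracted in a single batch and sequenced in 1 run. The lanes of single libraries were not used here. The replicate was the heifer, and no pair of libraries was identical.

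Genes were kept with filterByExpr (minimum count 10), TMM-scaled, and fitted on group alone by edgeR's quasi-likelihood test (version 4.0.16, under R 4.3.3). P-values were adjusted by Benjamini-Hochberg over all genes tested. DESeq2 1.42.0 and voom with limma 3.58.1 were alternatives, as were other scalings and filters, RTS in the model and each library left out. Single-gene tests were exact permutations over the 462 splits on log2 CPM with a prior count of 2. Correlations used 100000 permutations, and 18 of the 35 relations (effector genes and library properties) were added after the design. Over all heifers, r of the members with the library total, the TMM factor or the top gene's share of counts lay between −0.30 and 0.07. For the TMM factor the members were scaled by library size alone, and r of their TMM-scaled levels was not computed. LM1244 and LM1246, lowest in LTA, had factors of 1.10 and 1.11, and LM1283, highest in LTA, 0.896. The r of CCL4 with the library total was −0.51 within fertile and −0.49 within subfertile heifers. Within subfertile heifers, r of LTA was −0.46 with the TMM factor and 0.43 with the top gene's share. The filter that the study states, 10 CPM in 70% of samples, was run as the alternative of 10 CPM in 9 libraries. The methods were tested on simulated data, but the outcome is not given here and no result rests on it.

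The members and lists were chosen with earlier results of these data known. The genes named are both members, the 5 named genes most correlated with each, their paralogs, partners, receptors and 3 neighbours on each side, and every list gene called. The other list and marker genes are given as values. Names came from the supplementary tables of the study, which pair 2900 identifiers with symbols.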

Additional observations from a re-analysis of the deposited data

Results flagged for a closer look

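In 15 of 124 groups of 6 heifers checked, 1 heifer stood apart from the others of its group, by a gap to its neighbour that was large against the whole range of the group. Chance flags about 1 in 20 groups of normally distributed values. Whether CPM, used here without a log, are so distributed was not tested, so the chance rate here is not known. All 15 flagged heifers stood above the rest of their group. The genes were partly chosen for their likeness to each other, and no cause was tested. Of the 15, 5 were LM1265 among subfertile heifers: CCL4 at 7.97 CPM with the next heifer at 3.78, PRF1 at 108 CPM with the next at 73.9, MCU at 15.4 CPM with the next at 10.5, CALML4 at 4.69 CPM with the next at 2.37, and the NK cell marker CD244 at 46.2 CPM with the next at 29.8. MCU, PRF1 and CALML4 were among the genes most like CCL4, so these are not separate observations.

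LM1330 stood apart among fertile heifers in CCR3 at 207 CPM, with the next heifer at 51.4, and in CXCL5 at 30.2 CPM, with the next at 8.21. It also stood apart in the platelet markers TUBB1 at 7705 CPM, with the next at 2239, ITGA2B at 247 CPM, with the next at 114, and GP9 at 31.2 CPM, with the next at 8.26. LM1265 and LM1330 are the heifers with the highest CCL4 level of their groups. LM1247 stood apart among fertile heifers in CX3CR1, a receptor of cytotoxic lymphocytes and monocytes, at 357 CPM, with the next at 167. LM1244 stood apart among fertile heifers in MAP3K7 at 74.4 CPM, with the next at 55.7. Among subfertile heifers, LM1283 stood apart in ATF3 at 7.58 CPM, with the next at 3.70, LM1259 in CXCL10 at 31.3 CPM, with the next at 14.3, and LM1313 in GZMB at 8.44 CPM, with the next at 4.64.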

How the results depend on the processing

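The CCL4 log2FC kept its sign throughout and passed the thresholds with DESeq2 (−0.79) and voom (−0.95); with each library left out it ran from −1.26 to −0.56, and the mean difference of its exact permutation test from −1.21 to −0.74. The LTA log2FC ran from −0.10 to 0.21 with each library left out, and its exact permutation difference from −0.062 to 0.23. The r of CCL4 with LTA was 0.027 on deviations from the group means, 0.076 without the 2 heifers farthest from the median of CCL4, and between −0.28 and 0.32 with each library left out. Against 182 genes called, 624 were called with all genes above 0 counts kept, 37 at 10 CPM in 9 libraries, and 118 to 365 with each library left out. Against 2 list genes called, 1 was called with library size alone, with voom or with RTS in the model, 0 at 10 CPM in 9 libraries, where neither of the 2 passed the filter, and 0 to 4 with each library left out. The fertile minus subfertile difference in connections, chosen as were its alternatives after seeing the data, went from 18 to 7 on log2 CPM and 88 at an absolute r of 0.90 for CCL4, and from −181 to −207 and −589 for LTA. Neither member passed the filter of 10 CPM, so that setting gave no value for them. The causes of the other shifts were not tested. No paired analysis was possible because the groups are different heifers and the labels number no replicates. At 25 to 174 counts per library, counting error was below the spread between heifers.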
